A study of Homo sapiens with 2 samples.

Results

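The expression of 45 genes of DNA replication and mitosis was compared between 2 human lung cancer cell lines, H2087 and H596, of the 27685 genes in the deposited gene table. The genes were taken by their symbols, 24 as replication genes and 21 as mitosis genes, and all 45 were listed and measured. Both lines are established cultures that the labels call lung adenocarcinoma, and both were grown untreated in RPMI medium with fetal bovine serum. Each line gave 1 library of messenger RNA. The values are FPKM, the fragments assigned to a gene per kilobase of transcript, scaled for sequencing depth, together with estimated fragment counts. The counts summed to 46961500 in H2087 and 55387847 in H596. Because a line had 1 library, no test between the lines was possible, no p-value is given, and the 95% confidence intervals (CI) below cover counting error only, not the variation between cultures.

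A dividing cell copies its DNA once in S phase and separates the copies in mitosis. The transcription factors E2F1 to E2F3 switch on replication genes at the end of G1, the MCM proteins are loaded on origins as the ring of the replicative helicase, and polymerases, the PCNA clamp and enzymes of deoxynucleotide supply carry out synthesis. The mitotic genes are switched on later, in G2, by FOXM1 and the MuvB complex, and encode cyclin B and its kinase CDK1, the Aurora and Polo kinases, kinesins, kinetochore proteins and the machinery that degrades cyclin B. Cancer lines in culture usually express both sets. In RNA from a whole culture, fewer dividing cells and less RNA of a gene per cell cannot be told apart.

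The 2 libraries differed in lineage markers. Of 8 lung adenocarcinoma markers, NKX2-1 was at 110 FPKM in H2087 and 0.508 in H596, SFTA3 was at 100.6 and 0.0304, and SFTPB was at or near 0 in both lines. NAPSA was at 21.9 and 0.0645 FPKM, KRT18 at 3607 and 234 and EPCAM at 375 and 65.0. KRT7 was high in both, at 791 and 608 FPKM, and MUC1 was at 86.03 and 102. All 7 squamous markers were higher in H596, with a summed level of 4036 FPKM against 1.96 in H2087, so these markers went against the label of H596. Of 5 blood and endothelial markers, PTPRC and CD3E, which define blood and T cells, were at 0 in both lines, PECAM1 and VWF were at 0.489 FPKM or less, and CD68, a lysosomal protein abundant in macrophages, was at 128 FPKM in H2087 and 25.6 in H596. The summed fibroblast markers were at 3.97 and 10.7 FPKM, of which DCN made 9.77 in H596. The part of these differences in the values below was not tested.

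The 2 groups of genes differed in the letters of their promoters. The choice of genes by symbol did not read these letters, but E2F factors and MuvB are known to act on such genes, as described above. The contrast is therefore not independent of the choice. RefSeq promoter windows (GRCh38.p14), 300 bases from 250 before to 50 after each gene's start, were found for 38 of the 45 genes, 8 of which had several windows. A gene with several windows was counted as holding letters if any of them did. MCM4, MCM5, AURKA, TPX2, BIRC5, UBE2C and FOXM1 were not matched. The letters bound by E2F factors were searched on both strands as TTTCCCGC, TTTCGCGC, TTTGCCGC and TTTGGCGC, and were held by 16 of 22 replication genes (72.7%) and 2 of 16 mitosis genes (12.5%), CDK1 and CENPA. Among the 9755 expressed genes with a window, 6.82% held them, and among all 27305 genes 3.99%. The cell cycle homology region (CHR), the letters at which MuvB sits on mitotic promoters, was searched on both strands as TTTGAA and TTCGAA. It was held by 11 of 16 mitosis genes (68.8%) and 3 of 22 replication genes (13.6%), beside 14.9% of the expressed genes and 19.5% of all genes. CCAAT was frequent in both groups, in 77.3% of the replication and 81.2% of the mitosis genes, beside 43.5% of the expressed genes. A match of letters is a description and not a bound site, TTCGAA reads the same on both strands, and TTTCGCGCGAAA counts on both. Only these exact words were searched, so a gene counted as without them can hold close variants. TTTGGCGG in CDC45 and MCM10 and CTTGAA in CCNA2 are examples.

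Examples of both kinds are shown from 150 bases before to 30 after the start, 5′ to 3′, with the E2F or CHR letters in capitals. The first 4 are replication genes with E2F letters, of which PCNA was among the genes most shifted to H596 and CDT1 among those most shifted to H2087, and the others are mitosis genes with CHR letters.
E2F1 (chr20:33686356-33686535, - strand): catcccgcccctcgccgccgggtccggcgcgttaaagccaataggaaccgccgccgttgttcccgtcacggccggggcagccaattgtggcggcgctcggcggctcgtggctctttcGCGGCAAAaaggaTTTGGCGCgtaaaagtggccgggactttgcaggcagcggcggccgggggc
MCM2 (chr3:127598261-127598440, + strand): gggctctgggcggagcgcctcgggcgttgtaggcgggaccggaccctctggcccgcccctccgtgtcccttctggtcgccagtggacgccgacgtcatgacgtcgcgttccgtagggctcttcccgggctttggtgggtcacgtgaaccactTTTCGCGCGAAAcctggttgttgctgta
CDT1 (chr16:88803639-88803818, + strand): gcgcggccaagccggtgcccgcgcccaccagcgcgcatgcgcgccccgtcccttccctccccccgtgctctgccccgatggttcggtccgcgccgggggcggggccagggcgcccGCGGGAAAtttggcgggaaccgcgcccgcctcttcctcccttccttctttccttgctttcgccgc
PCNA (chr20:5126593-5126772, - strand): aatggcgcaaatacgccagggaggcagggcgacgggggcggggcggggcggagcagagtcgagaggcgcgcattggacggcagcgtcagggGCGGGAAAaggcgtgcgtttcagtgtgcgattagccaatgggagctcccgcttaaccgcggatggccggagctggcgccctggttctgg
CCNB2 (chr15:59104996-59105175, + strand): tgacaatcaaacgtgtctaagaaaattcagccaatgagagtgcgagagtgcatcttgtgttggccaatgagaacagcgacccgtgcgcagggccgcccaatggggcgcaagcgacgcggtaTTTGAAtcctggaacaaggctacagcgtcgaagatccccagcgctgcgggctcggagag
PLK1 (chr16:23678739-23678918, + strand): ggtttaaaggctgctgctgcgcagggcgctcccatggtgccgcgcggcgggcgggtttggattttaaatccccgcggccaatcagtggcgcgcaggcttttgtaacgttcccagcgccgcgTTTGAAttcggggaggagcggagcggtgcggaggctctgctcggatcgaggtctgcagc
NDC80 (chr18:2571407-2571586, + strand): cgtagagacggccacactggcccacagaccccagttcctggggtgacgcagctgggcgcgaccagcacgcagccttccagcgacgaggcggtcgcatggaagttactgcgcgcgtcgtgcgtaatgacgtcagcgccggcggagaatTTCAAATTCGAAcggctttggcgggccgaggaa
Counting the start as base 0, the E2F letters of E2F1 lay from -33 to -26 and from -20 to -13, and those of PCNA from -59 to -52. PCNA had 2 windows, and only the upstream one, shown here, held E2F letters. The leading PCNA transcript, NM_182649 (87.0% of the gene's FPKM in H2087 and 77.4% in H596), starts downstream of the other listed transcript. The windows were not matched to transcripts. The CHR letters of CCNB2 and PLK1 lay at the same place, from -29 to -24. In NDC80, 2 CHR words followed each other from -3 to 8. CENPF, the gene with the greatest difference between the lines, held TTTGAA from 40 to 45, downstream of its start.

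All 45 genes were expressed in both lines, and their order of levels was similar. FPKM ran from 1.65 (E2F2) to 242 (UBE2C) in H2087 and from 2.42 (MCM10) to 174.7 (PCNA) in H596, and the lowest count of any gene was 412. Mitosis genes had a median of 44.9 FPKM in H2087 and 48.7 in H596, and replication genes 31.6 and 19.8, beside 9.23 and 10.5 for the 13047 genes whose FPKM averaged 1 or more over the libraries, called here the genes tested. The paired levels are drawn in the plot of FPKM by library. Across the 45 genes the 2 libraries had a Spearman rho of 0.887 in FPKM and a Pearson r of 0.893 in log2(FPKM + 1), given as a description because the genes share the same libraries. In H596, PCNA came first among all 45 (95% CI, 172 to 178 FPKM), with an interval that overlapped that of UBE2C (168 to 176 FPKM), CENPF and NDC80 stood in the middle of the mitosis genes rather than at their lower end, and CDT1, PRIM1 and CDC45 stood lower than in H2087.

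**Figure D1:**
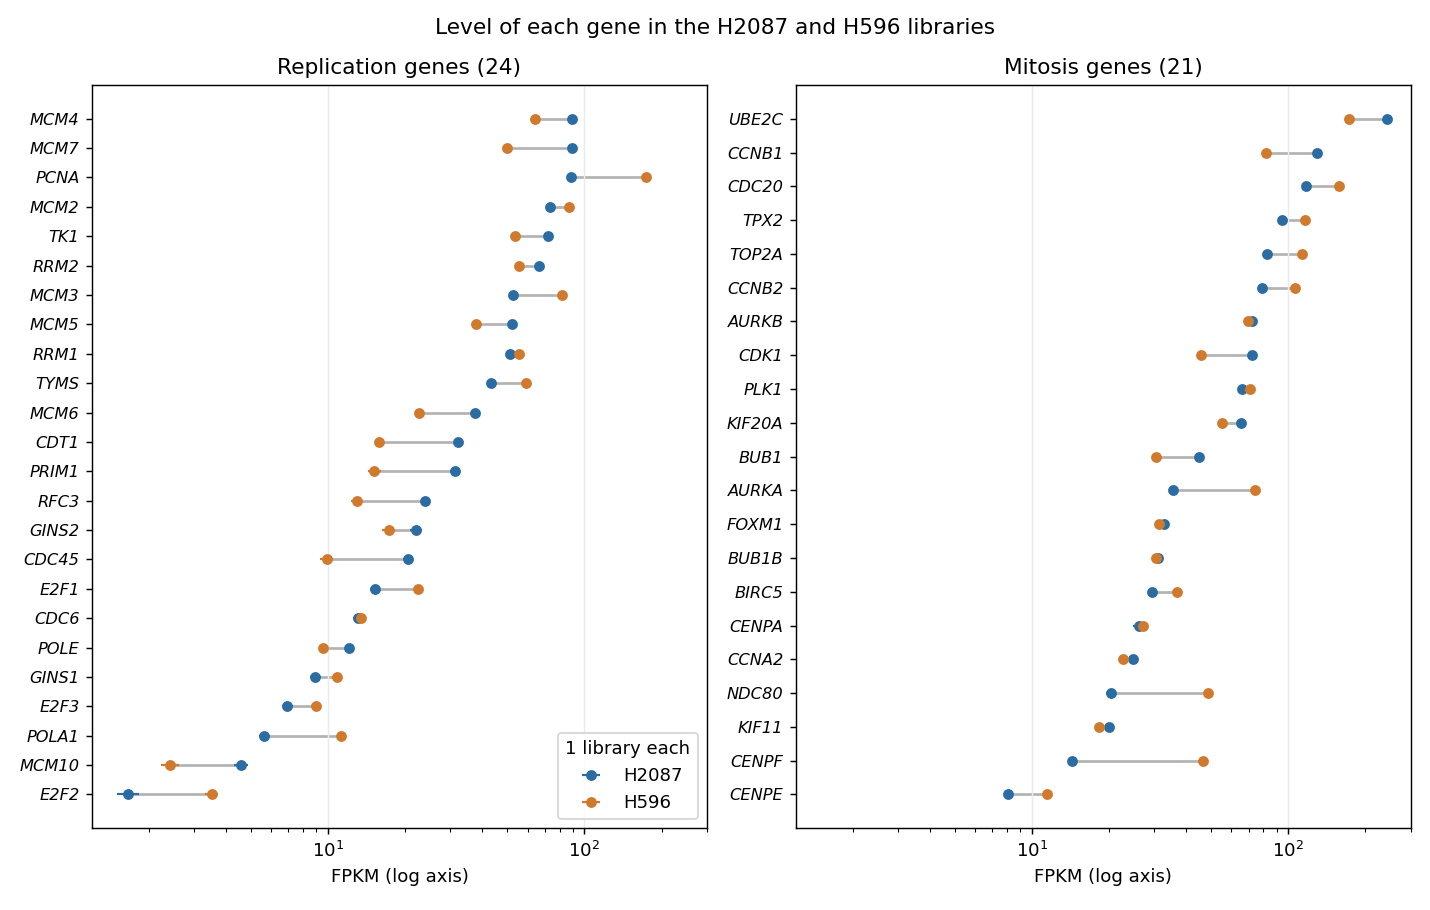
Level of each of the 24 replication genes and 21 mitosis genes in FPKM on a log axis, with 1 point per library (blue, H2087, orange, H596) and 95% intervals of counting error that are mostly smaller than the point. Most pairs lie close together, and CENPF, NDC80, AURKA, PCNA and POLA1 lie to the right in H596 while CDT1, PRIM1, RFC3 and CDC45 lie to the left.

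In summed FPKM as deposited, both groups were nearly level in the 2 lines, though the mitosis genes took a larger share of the counts in H596. The replication genes summed to 914.5 FPKM in H2087 and 895.0 in H596, a ratio of 0.979. This near-level sum depended on PCNA, which went from 88.7 FPKM in H2087 to 174.7 in H596. With PCNA left out, the replication sum was lower in H596. Of the 24 replication genes, 13 were lower in H596 and 11 higher, and their median level was lower there, at 19.8 FPKM against 31.6. The mitosis genes summed to 1309 and 1368 FPKM, a ratio of 1.05. Alternative scalings, described below, move the log2 of both ratios by -0.133 with TMM and by 0.183 with TPM. In estimated counts, the replication genes took 0.269% of the H2087 library and 0.252% of the H596 library, and the mitosis genes 0.332% and 0.394%.

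Gene by gene, few members differed by 2-fold. Differences are given as log2(FPKM + 1) of H596 less that of H2087. This difference was at least 1 for 3 of 45 genes, all of mitosis: CENPF at 1.64, NDC80 at 1.23 and AURKA at 1.04. Of the 13047 genes tested, 18.2% were higher in H596 by this measure. No member reached this limit in the lower direction, where 14.2% of all genes did, and 32.4% of all genes differed in either direction. Where the mean had to reach 10 FPKM, which took in 39 members and again gave 3 higher and 0 lower, 15.6% were higher, 14.0% lower and 29.6% different. The limit fell among closely spaced values: PCNA stood at 0.97 just inside it, and PRIM1 at -0.996, CDC45 at -0.98 and CDT1 at -0.97 just inside the lower one. In FPKM itself, with no 1 added, CDT1, CDC45 and PRIM1 were 2.03-, 2.07- and 2.06-fold lower in H596 and E2F2 was 2.12-fold higher. The counts therefore depended on how the libraries were scaled. With edgeR's TMM or DESeq2's size factors 2 members were higher (CENPF and NDC80) and 3 lower (PRIM1, CDC45 and CDT1), and with TPM, which rescales FPKM to a common sum, 6 were higher (also E2F2, PCNA and POLA1) and 0 lower.

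Fewer members than genes at large differed by 1.41-fold or more, but near 0 the shares were alike. Within 0.25 on the log2 scale, a ratio of 1.19, were 11 of 45 members (24.4%) and 20.7% of all genes tested, made up of 3 of 24 replication and 8 of 21 mitosis genes. Within 0.5 on the log2 scale, a ratio of 1.41, were 27 of 45 members (60.0%) and 39.8% of all genes tested, made up of 12 of 24 replication and 15 of 21 mitosis genes. The standard deviation of the differences was 0.628 over the members and 1.31 over all genes. In direction the groups were mixed: 11 replication genes were higher and 13 lower in H596, and 11 mitosis genes were higher and 10 lower. The median difference was -0.29 for replication and 0.05 for mitosis, beside 0.12 for all genes, and 9 of 24 and 9 of 21 lay above that all-gene median. The scaling of the libraries moves every log2 ratio together, by -0.133 with TMM, -0.118 with DESeq2 size factors and 0.183 with TPM. The sign held for 36 members under each of 5 scalings and changed under at least 1 for CDC6, RRM1, CCNA2, BUB1B, PLK1, AURKB, KIF11, CENPA and FOXM1. The plot of differences beside all genes shows both groups.

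**Figure D2:**
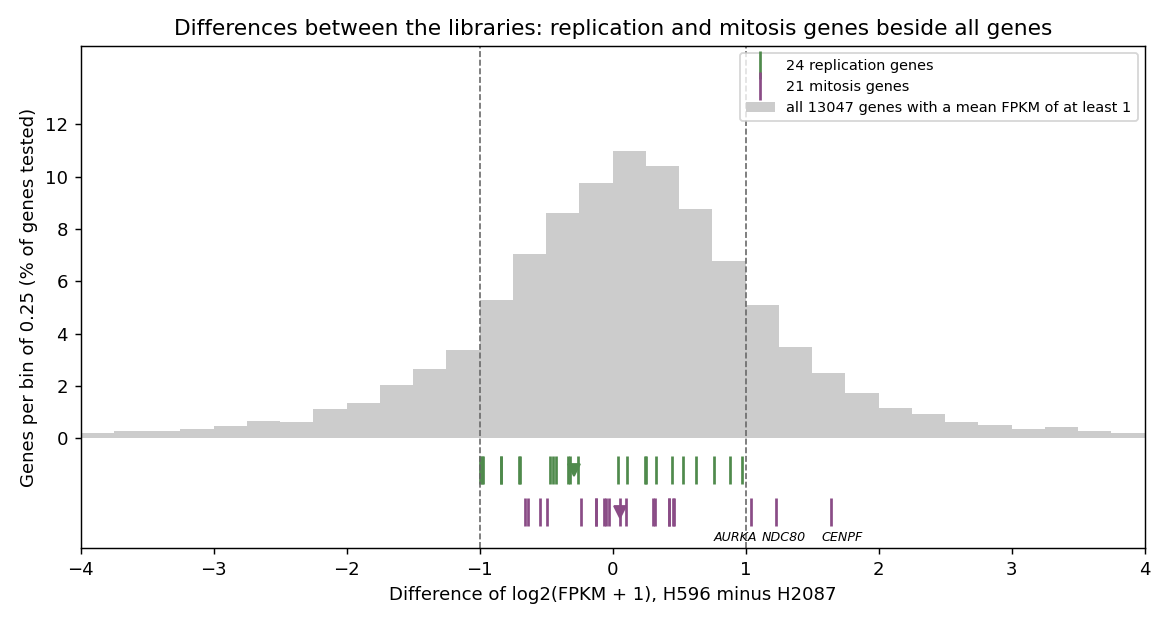
Distribution over 13047 genes of log2(FPKM + 1) in H596 less that in H2087 (grey bars, % of genes per bin of 0.25, shown from -4 to 4), with a tick for each replication gene (green) and each mitosis gene (purple), a triangle at each group's median and dashed lines at 2-fold. The replication ticks end inside both lines, and 3 mitosis ticks, AURKA, NDC80 and CENPF, lie beyond the right one.

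Among the replication genes, the E2F activators were the one set in which every member was higher in H596. E2F1 was at 15.2 FPKM in H2087 and 22.4 in H596, 1.47-fold (95% CI, 1.39 to 1.56). E2F2 was at 1.65 and 3.51 FPKM, 2.12-fold (95% CI, 1.89 to 2.39), although its difference on the log2(FPKM + 1) scale was 0.77, since the added 1 shrinks the difference of a low gene. E2F3 was at 6.94 and 8.95 FPKM, but its leading transcript alone was slightly lower in H596, at -0.13. These factors are held back by RB1, which was at 6.42 FPKM in H2087 and 1.33 in H596.

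The MCM2-7 genes, whose products form a ring with 1 copy of each, differed in opposite directions. MCM2 was at 73.5 FPKM in H2087 and 87.1 in H596, and MCM3 at 52.5 and 81.8. The other 4 were lower in H596: MCM4 at 89.8 and 64.4 FPKM, MCM5 at 51.9 and 37.8, MCM6 at 37.3 and 22.7, and MCM7 at 89.6 and 49.7. MCM3 was 1.56-fold higher (95% CI, 1.52 to 1.60) and MCM7 was 1.803-fold lower (95% CI, 1.75 to 1.85), and the sign of each of the 6 held under every scaling. MCM6 was the lowest of the ring in both lines. The spread from the highest to the lowest subunit was 2.41-fold in H2087, where MCM4 and MCM7 had overlapping intervals at the top, and 3.84-fold in H596, where MCM2 led.

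The genes that load and activate the ring were mostly lower in H596. CDT1, which brings MCM to origins, was at 32.1 FPKM in H2087 and 15.8 in H596, 2.03-fold lower (95% CI, 1.93 to 2.13). CDC6, its partner in loading, was at 13.1 and 13.4 FPKM, with a ratio of 1.03 whose interval (95% CI, 0.967 to 1.09) held 1. Of the other licensing genes, GMNN, which encodes the CDT1 inhibitor geminin, was at 23.2 FPKM in H2087 and 51.4 in H596. CDC45, which joins MCM to make the active helicase, was at 20.5 and 9.87 FPKM, 2.07-fold lower (95% CI, 1.93 to 2.24). MCM10, a factor of origin firing, was at 4.56 and 2.42 FPKM. The GINS tetramer, the third part of the helicase, was mixed, with GINS1 at 8.91 and 10.8 FPKM and GINS2 at 22.0 and 17.3, while the non-member subunit GINS4 was at 8.74 and 3.20. These 6 members (CDT1, CDC6, CDC45, MCM10, GINS1 and GINS2) summed to 101.1 FPKM in H2087 and 69.6 in H596.

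At the fork, PCNA and POLA1, the catalytic gene of polymerase alpha, were higher in H596, and PRIM1 and the clamp loader genes were lower. PCNA, the sliding clamp of the polymerases (chr20:5095599-5107268, hg19), was at 88.7 FPKM in H2087 and 174.7 in H596, 1.97-fold higher (95% CI, 1.91 to 2.03). RFC3, a subunit of the clamp loader that places PCNA on DNA, was at 23.9 and 12.9 FPKM, and all 5 RFC genes were lower in H596, with differences from -0.23 to -1.02. POLA1 was at 5.63 and 11.2 FPKM, 1.99-fold higher (95% CI, 1.87 to 2.12). PRIM1, the catalytic subunit of primase and a partner of POLA1 in 1 complex, was at 31.2 and 15.2 FPKM, 2.06-fold lower (95% CI, 1.92 to 2.21). The partner of PRIM1 in primase, PRIM2, went the other way, at 9.94 and 11.4 FPKM. POLA2, the other polymerase alpha subunit, was lower in H596, at 10.6 and 7.16 FPKM. Within that 4-subunit complex PRIM1 exceeded POLA1 by 5.55-fold in H2087, whereas in H596 the highest and lowest subunits (PRIM1 and POLA2) were 2.12-fold apart. POLE, the leading strand polymerase, was at 12.1 and 9.50 FPKM.

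The genes of deoxynucleotide supply were high and close to level in the 2 lines, with sums of 233 and 224 FPKM. RRM1 and RRM2, the large and small subunits of ribonucleotide reductase, were at 51.4 and 66.6 FPKM in H2087 and at 55.4 and 55.6 in H596. TYMS, which makes thymidylate, was at 43.1 and 59.1 FPKM, 1.37-fold higher (95% CI, 1.31 to 1.43). TK1, which salvages thymidine, was at 72.4 and 53.5 FPKM, 1.35-fold lower (95% CI, 1.301 to 1.407). The 4 genes spanned 1.68-fold in H2087 and 1.10-fold in H596, the tightest of the replication sets. TYMS overlaps ENOSF1 on the other strand, whose own counts were 1418 and 2988, and TYMSOS with 12 and 150, and how fragments were divided between them is not given in the sources used here.

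**Figure D3:**
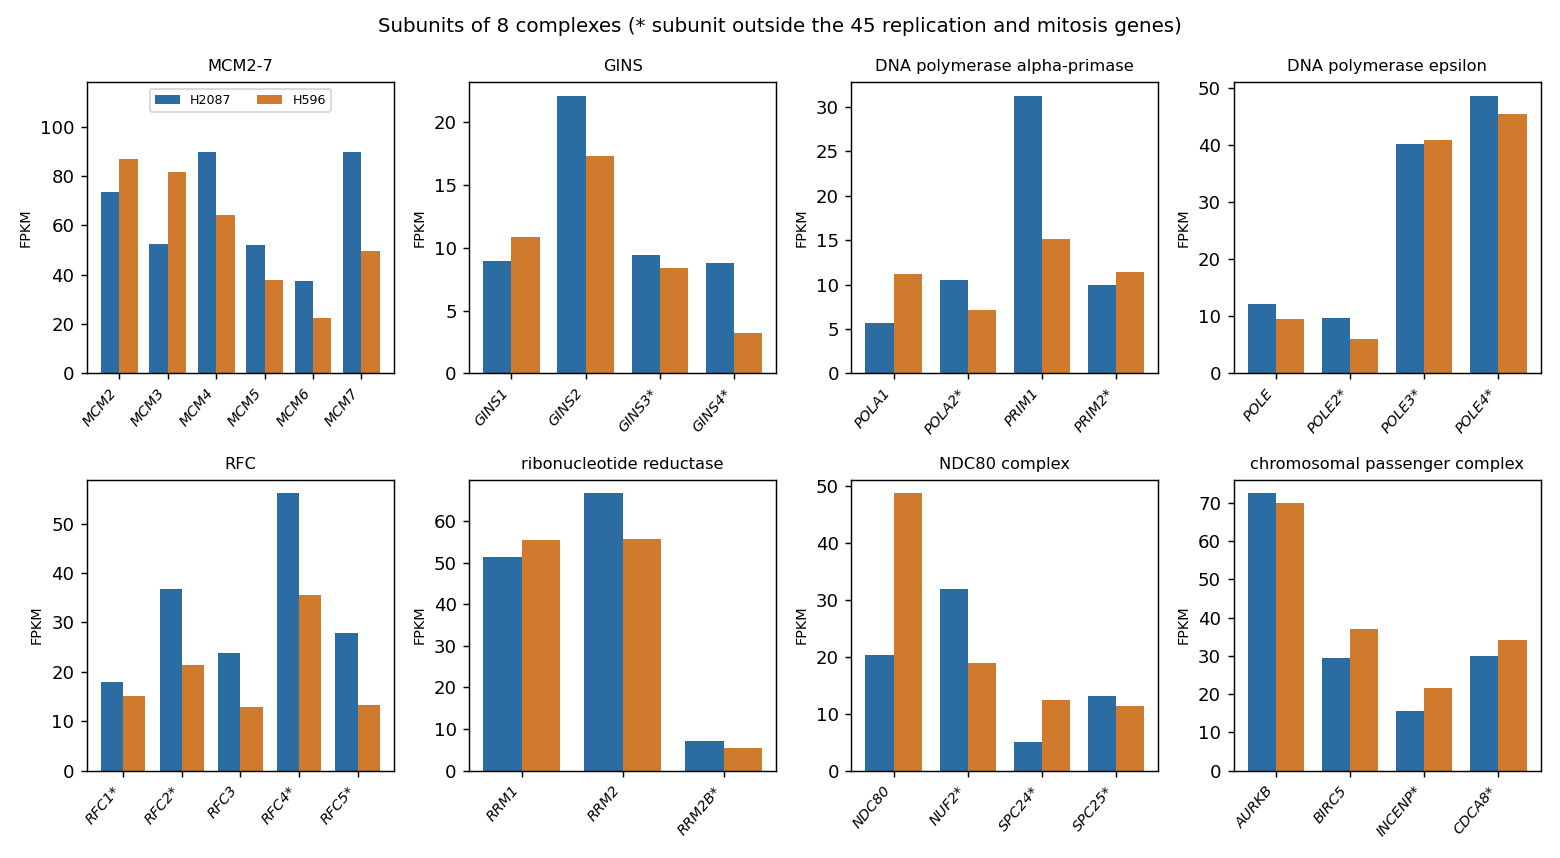
FPKM of each subunit of 8 complexes in H2087 (blue) and H596 (orange), 1 library each, with bars from 0 and an asterisk on subunits outside the 45 genes. Among subunits whose sign held under the scalings, those of MCM2-7, GINS, DNA polymerase alpha-primase and the NDC80 complex differ in opposite directions within the complex. All 5 RFC genes are lower in H596.

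The plot of subunits by complex sets members beside partners from the pathway lists, most of them chosen after their values were seen. Under the scalings, the sign of GINS3, POLE3, POLE4, RRM1 and AURKB changed and that of the other subunits held. The NDC80 complex is the outer kinetochore rod that holds microtubules. NDC80 was at 20.3 FPKM in H2087 and 48.7 in H596, and SPC24 at 5.07 and 12.5. NUF2, with which NDC80 pairs, was lower in H596, at 31.9 and 19.0 FPKM, as was SPC25 at 13.1 and 11.3.

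Among the mitosis genes, the cyclin B and CDK1 genes differed in opposite directions. CCNB1 was at 129.9 FPKM in H2087 and 81.9 in H596, 1.59-fold lower (95% CI, 1.55 to 1.63). CCNB2 was at 79.3 and 106.6 FPKM, 1.34-fold higher (95% CI, 1.301 to 1.389), so that CCNB1 led in H2087 and CCNB2 in H596. CDK1, the kinase that both cyclins activate, was at 71.9 and 45.8 FPKM. CCNA2, the cyclin of S and G2 phase, was at 24.8 and 22.7 FPKM, and its neighbour EXOSC9, which overlaps it, held 1427 and 1129 counts. FOXM1, the transcription factor of these genes, was at 32.8 and 31.3 FPKM, and the factor MYBL2 at 66.3 and 59.9. RHNO1, which overlaps FOXM1, held 2162 and 2420 counts beside 5544 and 6291 of FOXM1.

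UBE2C and CDC20, which act to end mitosis, were among the highest mitotic genes in both lines. UBE2C, the ubiquitin-conjugating enzyme of the anaphase-promoting complex, was the highest of all members in H2087 at 242 FPKM and was at 172 in H596, 1.41-fold lower (95% CI, 1.37 to 1.45). CDC20, the activator of that complex, was at 117.8 and 158 FPKM. Checkpoint genes that restrain CDC20 were level or lower: BUB1 was at 44.9 and 30.4 FPKM, and BUB1B at 31.0 and 30.5 with a ratio of 0.983 (95% CI, 0.948 to 1.02).

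Of the 3 Aurora and Polo kinases, AURKA alone differed by 2-fold in the values as deposited. AURKA, the kinase of spindle poles (gene ID 6790, chr20:54944445-54967393, hg19), was at 35.5 FPKM in H2087 and 74.1 in H596, 2.09-fold higher (95% CI, 2.01 to 2.17). TPX2, which activates AURKA on the spindle, was at 94.2 and 116 FPKM. PLK1 was at 65.9 and 70.6 FPKM. AURKB, the kinase of the chromosomal passenger complex, was at 72.4 and 69.8 FPKM, and BIRC5 (survivin), in the same complex, was at 29.5 and 37.0. The 3 kinases, 2.04-fold apart in H2087, were within 1.06-fold of each other in H596.

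The centromere and kinetochore genes held the other large differences. CENPF, a large protein of the kinetochore and nuclear envelope (gene ID 1063, chr1:214776532-214837914, hg19), was at 14.3 FPKM and 7037 counts in H2087 and at 46.7 FPKM and 27273 counts in H596, 3.27-fold higher (95% CI, 3.19 to 3.36). NDC80 (gene ID 10403, chr18:2571510-2616634, hg19) was at 20.3 and 48.7 FPKM, 2.40-fold higher (95% CI, 2.29 to 2.53). CENPE, a kinesin of the kinetochore, was at 8.03 and 11.4 FPKM, a difference of 0.46 that was -0.001 for its highest single transcript. CENPA, the histone H3 variant that marks the centromere, was at 26.1 and 27.1 FPKM with a ratio of 1.04 (95% CI, 0.975 to 1.11). The 4 genes summed to 68.6 FPKM in H2087 and 134 in H596. CENPF and NDC80 stayed above 2-fold under all 10 alternative settings, from 1.52 to 1.86 and from 1.10 to 1.43, whereas AURKA lay between 0.91 and 1.23.

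The motors and TOP2A differed little. KIF11, the motor that pushes spindle poles apart, was at 19.9 and 18.2 FPKM. KIF20A, a kinesin of cytokinesis, was at 65.6 and 55.3 FPKM, and overlaps CDC23, which had 3151 and 3089 counts. TOP2A, which untangles sister chromatids, was at 82.5 and 113 FPKM, 1.37-fold higher (95% CI, 1.35 to 1.40). Over all 45 genes the interval of the ratio held 1 for CDC6, BUB1B, AURKB and CENPA.

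The transcript table divided the 45 genes into 102 RefSeq transcripts, and the gene FPKM was the sum of its transcripts within 0.01 for 45 of 45. A single transcript was listed for 22 genes, CENPF and NDC80 among them, and 23 had several. The leading transcript was the same in both lines for 22 of these 23, the exception being AURKA, whose 9 transcripts each held at most 17.6%. A share moved by at least 10 percentage points in 6 genes, which are drawn with PCNA and AURKA in the plot of transcript shares. In MCM7, NM_005916 held 77.0% in H2087 and 50.5% in H596, and NM_182776 held 19.9% and 40.4%. In E2F3, NM_001949, the longer transcript, held 15.2% and 40.8%. In CENPE, NM_001813 held 24.6% and 47.1%. In FOXM1, the leading NM_021953 held 54.4% and 75.2%, so that it was higher in H596 by 0.38 while the whole gene stood at -0.06. Since the transcripts of a gene share most of their sequence, these shares are estimates and no interval was computed for them.

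**Figure D4:**
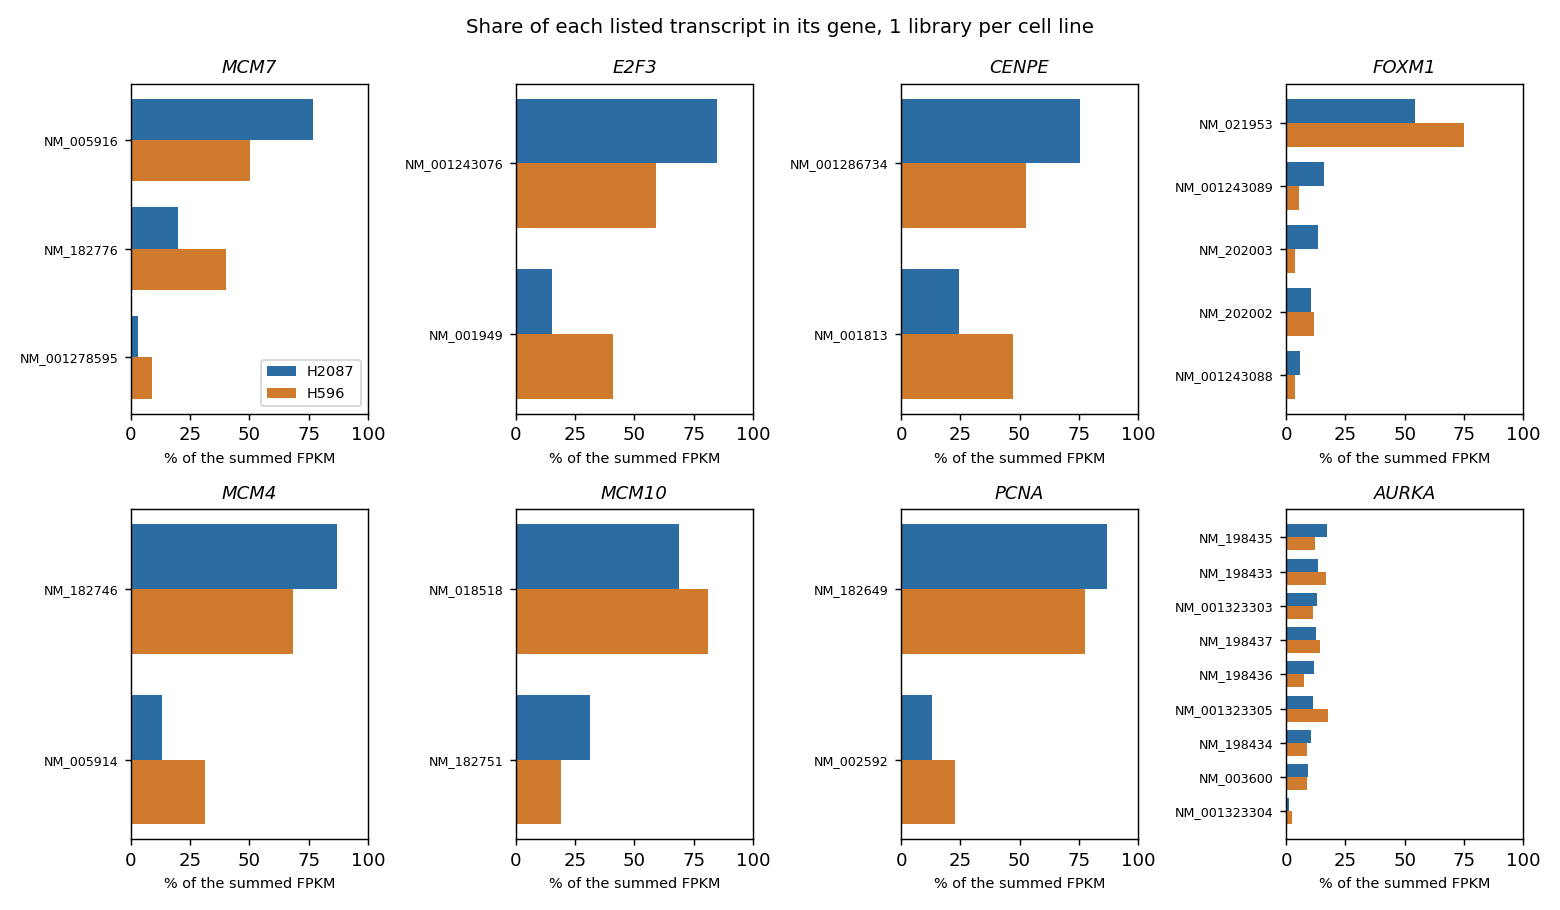
Share of each listed transcript in the summed FPKM of its gene (%), in H2087 (blue) and H596 (orange), 1 library each, for 8 genes. In MCM7, E2F3, CENPE and MCM4 the second transcript holds a greater share in H596, in FOXM1 and MCM10 the leading transcript does, and in AURKA no transcript exceeds 17.6%.

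The differences of these genes mostly had the sign of those of their chromosomal neighbours. Each gene was set beside the median difference of the 40 nearest genes tested on its chromosome, its own value left out. The 2 values had the same sign for 35 of 45 members (77.8%), 19 above 0 and 16 below, and for 65.2% of the 13044 genes compared in this way, and the gap between these shares was not tested. Signs were taken against 0 in the values as deposited, and those of 9 members change under a scaling. Some neighbour medians lay near 0, such as -0.004 for KIF11 and 0.01 for CDC45. Across the 45 members Pearson's r was 0.678 and Spearman's rho 0.723, and across the 13044 genes 0.307 and 0.381, as descriptions in which genes share libraries and nearby genes share neighbours. The standard deviation of the members' differences was 0.628 before and 0.464 after subtracting the neighbours' median. Across the 13044 genes it was 1.31 before and 1.24 after.

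The 6 members on chromosome 20 give an example. E2F1, TPX2, AURKA, PCNA and GINS1 were higher in H596 and UBE2C lower, and the median of the 40 neighbours was above 0 for all 6. For UBE2C it was 0.20 with 40 neighbours, -0.14 with 20 and 0.62 with 80. For AURKA the neighbours stood at 1.16, against 1.04 for the gene. For E2F1 and TPX2, which share part of their neighbours, it was 0.62 and 0.66, against 0.53 and 0.30. In the other direction, CCNB1 at -0.66 lay among neighbours at -0.75, 35 of 40 of them below the all-gene median, and PRIM1 at -0.996 among neighbours at -0.56 (chr12:56367697-57910438, hg19). Some members departed from their surroundings: CENPF exceeded its neighbours' median by 1.23 and NDC80 by 0.59, while CDC45 and CDT1 lay below theirs, by -0.99 and -0.93.

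**Figure D5:**
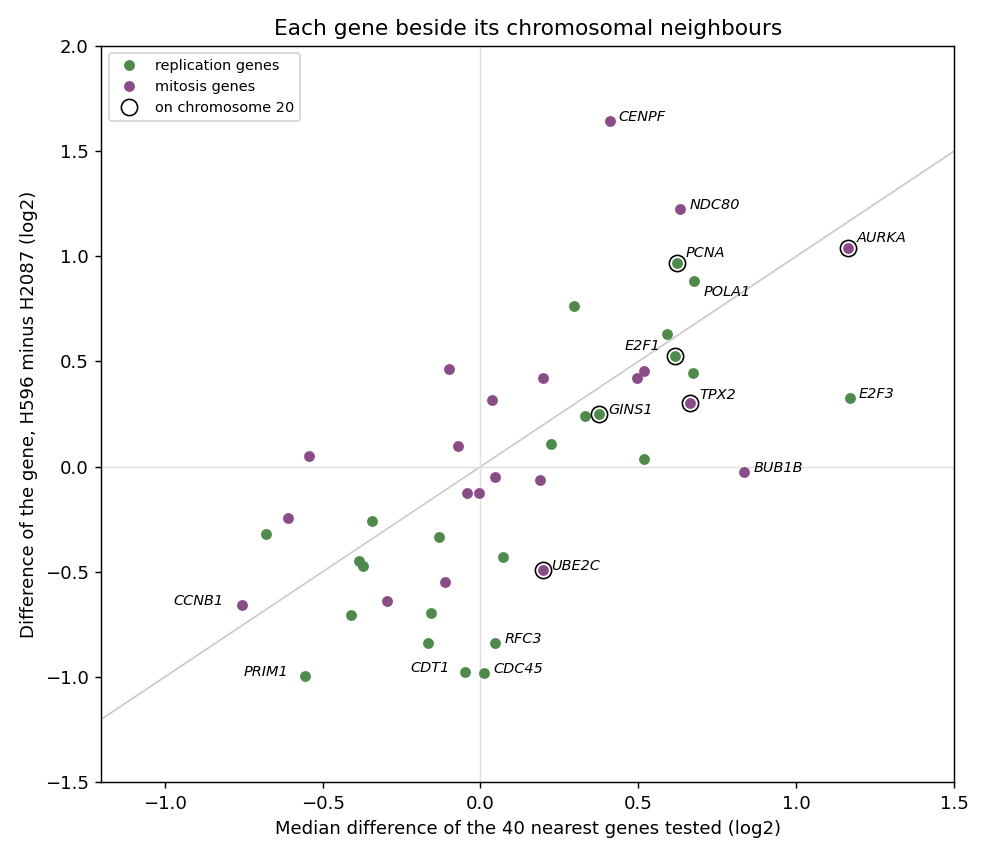
Difference of each replication gene (green) and mitosis gene (purple) against the median difference of its 40 nearest genes tested, both on the log2 scale, H596 minus H2087, with the 6 chromosome 20 genes ringed and a line of equality. The points rise from lower left to upper right, CENPF and NDC80 lie above the line, and CDC45, CDT1 and RFC3 lie below it.

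The wider pathway, 190 genes in 10 lists, had 20 genes higher and 20 lower in H596 by at least 2-fold as deposited. Both shares were below the 18.2% higher and 14.2% lower among all genes tested. Of the 20 higher, 7 were among the G1 regulators described below. The median difference was -0.13, beside 0.12 for all genes tested, and 77 of the 190 lay above that all-gene median. Among 23 licensing and helicase genes, 1 was higher (GMNN) and 3 were lower, among them ORC1 (10.4 and 3.93 FPKM) and ORC6 (22.0 and 7.04 FPKM), subunits of the origin recognition complex. Among 26 fork and chromatin assembly genes none was higher and 2 were lower, RFC5 (27.9 and 13.3 FPKM) and DSCC1 (24.8 and 8.14 FPKM), both of clamp loaders. Of 12 genes of nucleotide supply, SAMHD1, which degrades deoxynucleotides, was higher in H596 (5.57 and 20.1 FPKM), and IMPDH2 of guanine nucleotide synthesis (229.9 and 85.5 FPKM) and the nucleoside transporter SLC29A1 (28.5 and 6.05 FPKM) were lower. The median difference of that list was -0.42, with 2 of 12 above the all-gene median.

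On the mitotic side, 5 of 30 kinetochore and checkpoint genes were higher and 5 lower, shares near the 18.2% and 14.2% of all genes tested. KNL1 (3.75 and 10.8 FPKM) and OIP5 (7.21 and 19.1 FPKM) leaned most to H596, and CENPH (40.9 and 13.3 FPKM) and CENPK (27.0 and 8.98 FPKM), on chromosome 5 like CCNB1, leaned most to H2087. Of 23 spindle and cytokinesis genes 3 were higher and none lower, with ANLN, an actin-binding protein of the cleavage furrow, at 42.3 and 152 FPKM and the kinesin KIF23 at 29.4 and 69.2, and the list's median was 0.33. PTTG1, the securin that restrains separase, was at 219.8 and 71.2 FPKM and was the 1 gene lower among 18 kinases, phosphatases and separase genes, while 1 was higher, GSG2, a kinase of histone H3, at 1.58 and 5.42 FPKM. MKI67, a common marker of dividing cells, was at 31.1 and 35.4 FPKM. Cohesin and condensin (13 genes) and the anaphase-promoting complex (14 genes) each had 1 higher and 1 lower.

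The G1 regulators differed more than the members. Of 15 G1 cyclins, kinases and inhibitors, 7 were higher and 2 lower, where 18.2% of all genes tested were higher and 14.2% lower. Their median difference was 0.95. Their median distance from the all-gene median was 1.07, beside 0.55 for the replication genes, 0.31 for the mitosis genes and 0.65 for all genes. CDK4 was at 961 FPKM in H2087 and 54.0 in H596, the inhibitor CDKN1A at 6.54 and 72.1, and CCNE1, a cyclin of S phase entry, at 1.65 and 6.48. Of 16 E2F partners, pocket proteins and MuvB genes, none was higher and 3 were lower on this scale, RB1 and E2F5 among them, beside the same all-gene shares. Their median distance was 0.60. In FPKM itself, with no 1 added, RBL1, a relative of RB1, was 2.23-fold higher in H596, at 4.24 and 9.46 FPKM. E2F7 was likewise 2.01-fold higher.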

How the data were processed

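RNA-seq was measured in 1 library of untreated H2087 cells and 1 of untreated H596 cells, prepared with a stranded mRNA kit. Per the labels, the authors trimmed reads with Trimmomatic, aligned them to hg19 with HISAT2 2.0.5 and estimated abundance with StringTie 1.3.3b. The deposited tables give estimated counts, as whole numbers, and FPKM per gene and per RefSeq transcript, and whether counting used the strand is not given in the sources used here. A symbol listed on several rows was kept at its row with the highest mean FPKM.

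From these values, log2(FPKM + 1) of H2087 was subtracted from that of H596 for the 13047 genes whose mean reached 1 FPKM, and a difference of at least 1, 2-fold, was counted. The 95% intervals were, for FPKM, Wilson intervals on the fraction of a library's estimated count that fell on the gene and exact binomial intervals for ratios. With 1 library per line no test was run. edgeR 4.0.16 (TMM) and DESeq2 1.42.0 supplied size factors for alternatives only. Python 3.11.15, numpy 2.4.6, pandas 2.3.3 and scipy 1.17.1 were used, and the scripts were tested on simulated data. Promoter windows came from RefSeq (GRCh38.p14) and were not placed on hg19.

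The members and the pathway and marker lists were chosen with earlier results of these data known. Named genes were all 45 members, genes that overlap them, and of each pathway list at most the 2 genes leaning most to each line, plus RB1, CDKN2A, CCND1, CCNE1, MKI67 and MYBL2. Other genes named here were chosen after their values were seen.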

Additional observations from a re-analysis of the deposited data

How the results depend on the processing

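The 6 main results (2 counts of 2-fold differences, 2 group medians and 2 counts above the all-gene median) were recomputed under 10 alternatives, 60 values in all. Of these, 44 stayed within the set limits and 16 moved. A reversal was not scored for these 6 results, and the median of the mitosis genes changed sign under some scalings, given below. With 3 members higher and 0 lower by 2-fold as reported, the lower count was 3 with TMM, DESeq2 size factors, centring on the median of all genes, without mitochondrial and ribosomal protein genes and with a pseudocount of 0.1, 2 with counts scaled by library total in place of FPKM and 1 with the highest single transcript, and the higher count was 6 with TPM. The higher count also changed in other settings. AURKA fell below 2-fold with TMM, DESeq2 size factors, centring and the highest single transcript (0.91 to 0.98). E2F2 passed it with a pseudocount of 0.1 (1.04) and with counts scaled by library total (1.01). The median difference of replication genes was -0.41 with TMM, -0.40 with DESeq2 and with centring and -0.12 with TPM, and that of mitosis genes was -0.076 with TMM, -0.061 with DESeq2, -0.065 with centring and 0.23 with TPM. These scalings add nearly 1 value to every log2 ratio, which is how they move the medians. The counts above the all-gene median were 9 of 24 and 9 of 21 under each scaling. A scaling moves that median along with the members, so this sameness was built in, and it is part of the 44 values that stayed. Over all settings the counts ran from 7 to 11 and from 9 to 11. Of 450 recomputed member differences 249 stayed, 201 moved and 0 of those at 2-fold reversed, and 4 changed sign with the highest single transcript, E2F3 to -0.13, FOXM1 to 0.38, CENPE to -0.001 and AURKB to 0.12. Members above their neighbours' median were 15 of 45 with 40 neighbours, where 50.3% of all genes were, 17 with 20 and 16 with 80. No paired analysis was possible because a line had 1 library, which also left no replicate to leave out. Depth limits E2F2 and MCM10 most, at 412 and 624 counts in their lower library.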

Other observations

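Promoter letters and differences between the lines were set side by side for the 38 genes with a window, as a description without a test. The 18 genes with E2F letters had a median difference of 0.15 (range, -0.97 to 0.97) and the 20 without the exact words searched had -0.09 (range, -0.996 to 1.64). The 14 genes with CHR letters had a median of 0.10 (range, -0.69 to 1.64) and the 24 without the exact words searched had -0.18 (range, -0.996 to 0.97). The ranges overlapped in both comparisons. CDT1 and PCNA, whose differences were near opposite ends of the replication genes, both held TTTCCCGC on the reverse strand, PCNA only in the upstream of its 2 windows.

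Of the remaining fixed regulators, CDKN2A, which encodes p16 and ARF, was at 118.8 FPKM in H2087 and 103 in H596, and CCND1 was at 151 and 97.8 FPKM. CDKN2B, next to CDKN2A on chromosome 9, was at 1.61 and 12.1 FPKM.

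MCM7 carries the microRNA genes MIR106B, MIR93 and MIR25 within its span. Their rows held 2 to 25 counts in either library, beside 12913 and 8471 counts of MCM7. The pseudogene PCNAP1 was listed at 0 in both lines, and UBE2CP5, a copy of UBE2C, had 83 and 269 counts beside 9853 and 8278 of UBE2C.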
